A study of Mus musculus with 6 samples.

Results

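A set of genes was followed in thigh muscle labelled as Prr14 knockout or wild type. These were Sgk1, the FoxO factor genes Foxo1 and Foxo3, the ubiquitin ligase genes Trim63, Trim55 and Fbxo32, and Mstn, Klf15, Ddit4 and Cdkn1a. They are 10 of the 22036 genes in the deposited count table and were chosen by symbol as the axis that joins glucocorticoid hormones and FoxO factors to muscle wasting. Sgk1 was picked because its count was much lower in the knockout, so its values in both genotypes are a description with no test. The other 9 were chosen by function, with earlier results of these data known. The 3 knockout libraries (KO; genotype Prr14-KO) and the 3 wild-type libraries (WT; genotype Prr14-WT) are nanopore cDNA of total RNA from the quadriceps femoris of mice. KO replicates 1, 2 and 3 carry the titles K4, K5 and K7, and WT replicates 1, 2 and 3 carry W3, W4 and W8. The age and sex of the mice, the strain, the part of the gene removed and whether the deletion was limited to muscle are given by none of the sources used. The PRR14 protein tethers heterochromatin to the nuclear lamina.

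Muscle mass follows the balance of protein synthesis and breakdown. When insulin or IGF-1 binds its receptor, the kinases AKT and SGK1 phosphorylate FoxO factors and hold them out of the nucleus. Without that signal, FoxO factors switch on the ubiquitin ligase genes Fbxo32 (atrogin-1) and Trim63 (MuRF1), whose products mark muscle proteins for the proteasome. Glucocorticoids act through their receptor, a transcription factor, on many of the same genes, among them Sgk1, Klf15, Ddit4, Foxo1 and Trim63. In ground squirrels and mice, SGK1 has been linked to the upkeep of muscle mass during hibernation, disuse and fasting. Myostatin, the product of Mstn, is secreted by muscle and limits its growth through activin receptors and SMAD proteins.

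The start sites of these genes were searched for the letters that the glucocorticoid receptor, FoxO factors and p53 are known to bind. RefSeq promoter windows on GRCm38.p6, running from 250 bases before to 50 bases after an annotated start, were at hand for 8 of the 10 genes, and Fbxo32 and Trim55 were without one. Sgk1 has 6 annotated starts. The 250 bases before 1 of them are shown because they hold the full palindrome to which the glucocorticoid receptor binds as a dimer: AGAACA, any 3 bases, then TGTTCT, a pattern that is its own reverse complement. The capitals mark that match, at chr10:21993701-21993715, 189 to 175 bases before the start.
Sgk1, chr10:21993640-21993889, plus strand: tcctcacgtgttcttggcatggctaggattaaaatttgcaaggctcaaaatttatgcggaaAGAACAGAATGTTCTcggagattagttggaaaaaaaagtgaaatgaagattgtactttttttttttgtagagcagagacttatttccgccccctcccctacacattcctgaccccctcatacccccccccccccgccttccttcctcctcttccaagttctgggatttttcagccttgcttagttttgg
Of 32851 windows over 27025 genes, 3 held this palindrome (0.00913%), those of Sgk1, Acnat2 and Gm35041. The 250 bases before the Trim63 start are shown because sites of both regulators of the axis stand side by side in them. The capitals are a glucocorticoid receptor half-site (AGAACA, here as its reverse complement TGTTCT, at chr4:134314920-134314925) and a FoxO site (GTAAACA, here as TGTTTAC, at chr4:134314926-134314932), with no base between them.
Trim63, chr4:134314870-134315119, plus strand: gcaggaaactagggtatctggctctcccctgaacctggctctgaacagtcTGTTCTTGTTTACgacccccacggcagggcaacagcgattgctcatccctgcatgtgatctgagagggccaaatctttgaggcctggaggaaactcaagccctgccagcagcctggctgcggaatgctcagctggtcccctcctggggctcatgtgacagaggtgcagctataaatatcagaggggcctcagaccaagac
Over all windows, searched on both strands, 19.0% held the half-site and 3.65% held the FoxO site. The half-site is part of the palindrome, so these counts overlap. Among the 8 genes with a window, 2 (Sgk1 and Trim63) held a half-site and 1 (Trim63) held the FoxO site. These are counts of genes with a match in any window, and Sgk1 has 6 windows. They are therefore not on the same scale as the shares of windows. A match describes these letters only and shows no binding.

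The libraries held 1436099 to 1712975 listed read counts each. Prr14 had 4, 10 and 3 counts in KO and 9, 11 and 12 counts in WT (edgeR adjusted p = 0.196), with KO replicate 2 at the 10; since the removed part of the gene is not known, these counts check the labels only in part. The fits for the 10 genes and for the called genes of each list were repeated without each library in turn. All 10 markers of skeletal muscle fibres were detected. Their sum was 118690 to 130090 CPM in KO libraries and 156000 to 196200 CPM in WT libraries, without overlap. Of the 10, 5 were called lower in KO (Acta1, Mylpf, Ttn, Neb and Cacna1s) and 0 higher, against 3.28% lower over all genes tested. Log2 fold changes were negative for 9 of them, with a median of -0.52. The 11 endothelial markers summed to 331 to 392 CPM in KO and 324 to 368 CPM in WT, and the 10 fibroblast markers to 3849 to 4847 CPM in KO and 3944 to 5994 CPM in WT. The 8 adipocyte markers summed to 2129 to 2651 CPM in KO and 4060 to 6817 CPM in WT, without overlap. Without Car3, which muscle fibres also express, the other 7 summed to 572 to 823 CPM in KO and 242 to 1022 CPM in WT. In tissue RNA, fewer cells of a type and less RNA per cell cannot be told apart. The labels tie libraries to mice only through their titles, and p-values here refer to the variation among these 6 libraries, which may be technical.

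The Sgk1 level in KO muscle was 0.240 of that in WT muscle. Sgk1 (ENSMUSG00000019970, GRCm38 chromosome 10, 21882184 to 21999903, plus strand) encodes the serum- and glucocorticoid-induced kinase, an AKT relative. It had 82.0, 72.5 and 79.6 CPM in KO replicates 1 to 3, against 270.7, 355 and 351 CPM in WT replicates 1 to 3, where CPM are the read counts divided by TMM-scaled library sizes. All KO libraries were far below all WT libraries, and the KO libraries lay close together. The means were 78.0 ± 4.97 CPM in KO and 325 ± 47.5 CPM in WT (SD, n = 3 each, as in all such values here), a ratio of 0.240. The log2 fold change in edgeR was -2.06 (SE 0.14), the 29th lowest of 6680 genes tested, and it ranged from -2.21 to -1.82 over 14 other settings. Because Sgk1 was picked for its fall, this rank and range are a description only. The counts behind the fold change were 116 to 139 reads per KO library and 371 to 521 reads per WT library. The highest KO library exceeded the lowest 1.13-fold, against a median of 1.25-fold over the 1883 tested genes with a mean of at least 50 CPM. In WT the factor for Sgk1 was 1.31, against a median of 1.196.

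The other kinases of the family stood at low read counts or at 0. Sgk3, the endosomal SGK kinase, averaged 8.21 ± 0.915 CPM in KO and 6.55 ± 1.32 CPM in WT (log2 fold change 0.33, SE 0.34, edgeR adjusted p = 0.656). Sgk2 had 0 counts in all 6 libraries, which allows up to 1.72 to 2.19 CPM, the worth of 3 counts in a library; this limit covers counting error only. Of the 10 tested SGK kinases, activators and substrates beside Sgk1 and Foxo1, Sgk3 included, 0 passed (edgeR, Benjamini-Hochberg adjusted p under 0.05 over all genes tested). At an unadjusted p under 0.05, 20% of all genes tested passed in either direction. Among the 10 there were 2, both lower in KO, and DESeq2 and limma-voom passed 0. These were Mapkap1, a subunit of the mTOR complex that activates SGK1, at 8.80 CPM in KO and 16.7 CPM in WT (edgeR adjusted p = 0.0729), and Pdpk1 (PDK1), the kinase that completes SGK1 and AKT activation, at 11.1 CPM in KO and 17.2 CPM in WT (edgeR adjusted p = 0.192). The SGK1 substrates are represented by Ndrg2 and by Nedd4l, a ubiquitin ligase that SGK1 restrains. Ndrg2 averaged 1128 ± 116 CPM in KO and 1228 ± 91.6 CPM in WT (edgeR adjusted p = 0.577), and Nedd4l averaged 7.21 ± 2.10 CPM in KO and 12.1 ± 3.46 CPM in WT (edgeR adjusted p = 0.256).

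Of the 9 genes other than Sgk1, 8 passed the filter on low counts, and Foxo1 was the single one that fell. Over all 6680 genes tested 6.26% passed in either direction, 2.98% as higher and 3.28% as lower in KO (199 and 219 genes). Unscaled library totals gave 653 genes higher and 148 genes lower in KO. The count higher in KO was 0 of the 8 in edgeR, also at an unadjusted p under 0.05 and in DESeq2 and limma-voom. The KO and WT libraries did not overlap for Foxo1 and Mstn among the 8, and for 25.8% of all genes tested. The count of 1 became 0 with library totals, with DESeq2 and without KO replicate 1, 2 or 3 or WT replicate 2 or 3, and 2 (Foxo1 and Mstn) with robust=FALSE. With limma-voom it was 1, but the gene was Mstn and not Foxo1.

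**Figure D1:**
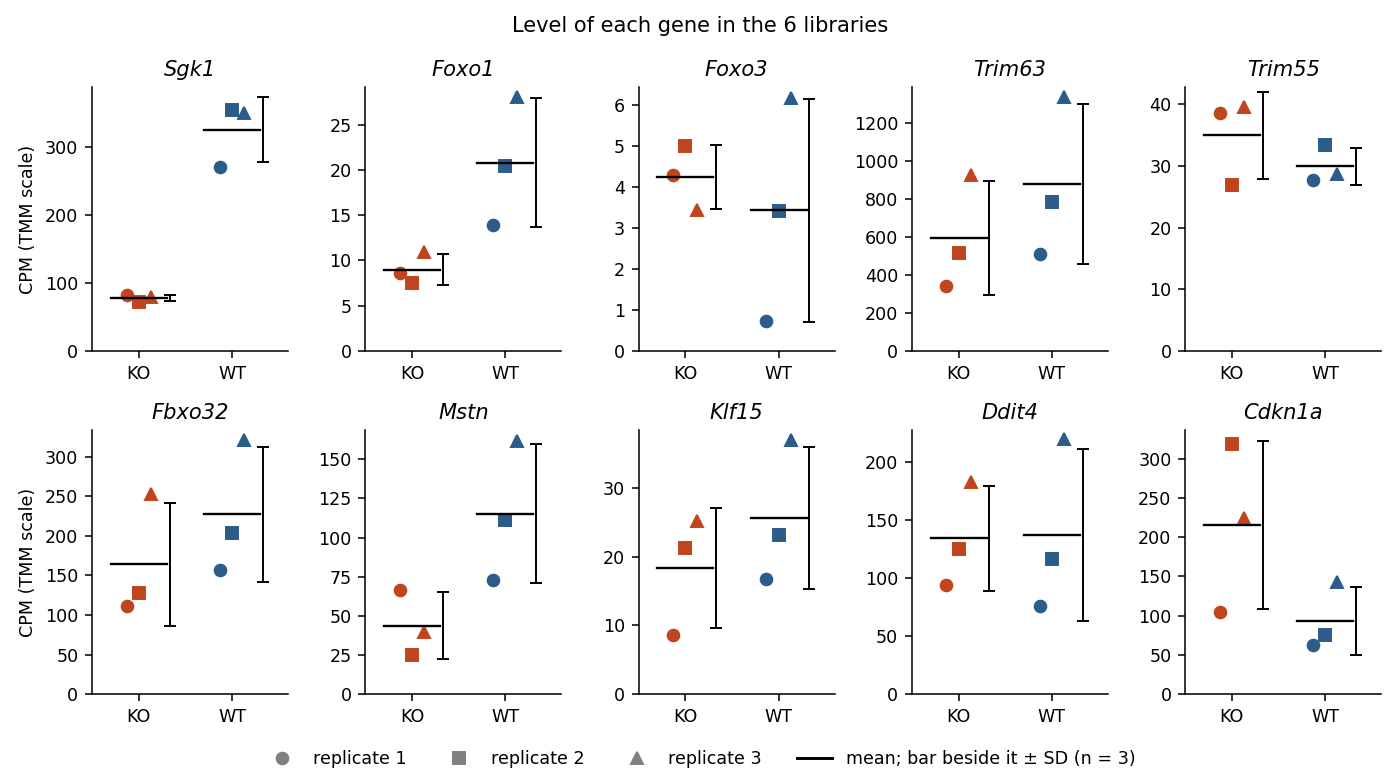
CPM on the TMM scale (vertical axes, each from 0) of the 10 genes in the 3 KO and the 3 WT libraries; symbols give the replicate, the line is the mean and the bar beside it ± SD (n = 3). The KO libraries lie below all WT libraries for Sgk1, Foxo1 and Mstn, and the genotypes overlap for the other 7 genes.

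The FoxO factor genes had few reads. Foxo1 (ENSMUSG00000044167, chromosome 3, 52268336 to 52353221, plus strand) encodes the FoxO factor that glucocorticoids induce in muscle. It had 8.57, 7.50 and 10.9 CPM in KO replicates 1 to 3 (14, 12 and 19 counts), against 13.9, 20.4 and 28.1 CPM in WT replicates 1 to 3 (19, 30 and 41 counts). All KO libraries were below all WT libraries, and the gap between the highest KO and the lowest WT library was smaller than the range within WT. The means were 8.98 ± 1.73 CPM in KO and 20.8 ± 7.11 CPM in WT (log2 fold change -1.20 ± 0.31 SE; adjusted p of 0.0337 in edgeR). The call was lost without KO replicate 1, 2 or 3 (edgeR adjusted p = 0.0793, 0.0904 and 0.0539), without WT replicate 2 or 3 (0.0916 and 0.149), and with library totals (0.0528), DESeq2 (0.0655) and limma-voom (0.0679). Foxo3 (ENSMUSG00000048756, chromosome 10, 42181841 to 42276755, minus strand), the FoxO factor best known for inducing Fbxo32 and autophagy genes, was too low to be tested. It had 7, 8 and 6 counts in KO and 1, 5 and 9 counts in WT, or 4.24 ± 0.781 CPM in KO and 3.43 ± 2.72 CPM in WT (exact two-sided permutation p = 0.7, where 0.1 is the smallest that 3 against 3 libraries allow). In Foxo1, as in Fbxo32 and Cdkn1a, exons overlap those of an annotated gene on the opposite strand, and no source used says whether the counting was stranded. Foxo4, a further relative, averaged 4.40 ± 2.22 CPM in KO and 3.48 ± 0.598 CPM in WT and was not tested either.

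The muscle ubiquitin ligases Trim63 and Fbxo32 did not pass, and both varied more than 2-fold between libraries of 1 genotype. Trim63 (ENSMUSG00000028834, chromosome 4, 134315120 to 134329629, plus strand), the MuRF1 ligase of the thick filament, had 343, 517 and 929 CPM in KO replicates 1 to 3, against 512, 787 and 1338 CPM in WT replicates 1 to 3. The genotypes overlapped widely. The log2 fold change was -0.56 (SE 0.56, 95% interval -2.07 to 0.95, edgeR adjusted p = 0.674), an interval that leaves room for changes in both directions. Fbxo32 (ENSMUSG00000022358, chromosome 15, 58175879 to 58214932, minus strand), which encodes the F-box protein atrogin-1, had 110.8, 128 and 253 CPM in KO, against 157, 203 and 322 CPM in WT. It overlapped between genotypes in the same way (log2 fold change -0.47, SE 0.44, 95% interval -1.59 to 0.65, edgeR adjusted p = 0.640). Trim55 (ENSMUSG00000060913, chromosome 3, 19644474 to 19692421, plus strand) encodes MuRF2, the relative of MuRF1 at the sarcomere and along microtubules. It had 38.5, 26.9 and 39.5 CPM in KO and 27.7, 33.4 and 28.8 CPM in WT, with overlap (log2 fold change 0.22, SE 0.21, 95% interval -0.23 to 0.68, edgeR adjusted p = 0.625). Its interval was narrower than those of Trim63 and Fbxo32. Trim54 (MuRF3), the remaining family member, averaged 280.4 ± 58.3 CPM in KO and 216 ± 48.9 CPM in WT (edgeR adjusted p = 0.279).

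Mstn had the lowest log2 fold change of the 8 tested genes and did not pass. Mstn (ENSMUSG00000026100, chromosome 1, 53061640 to 53068079, plus strand) had 66.7, 25.0 and 39.5 CPM in KO replicates 1 to 3, against 73.0, 111.1 and 162 CPM in WT replicates 1 to 3. The KO libraries were all below the WT libraries, with KO replicate 1 just under WT replicate 1. The means were 43.7 ± 21.2 CPM in KO and 115 ± 44.4 CPM in WT (log2 fold change -1.40, SE 0.44, 95% interval -2.47 to -0.33, unadjusted p = 0.0190 in edgeR, adjusted p = 0.149). The threshold was passed in a pair of settings, limma-voom (adjusted p = 0.0363) and robust=FALSE (0.0319), and over all 14 other settings the adjusted p ran from 0.0319 to 0.311. Summed markers of slow fibres were 2071, 5742 and 2038 CPM in KO replicates 1 to 3 and 3585, 3513 and 1806 CPM in WT replicates 1 to 3. KO replicate 2, the highest in slow-fibre markers, was the lowest in Mstn, and the part of fibre type in the Mstn values was not tested.

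Klf15 and Ddit4, 2 direct targets of the glucocorticoid receptor, overlapped between genotypes. Klf15 (ENSMUSG00000030087, chromosome 6, 90462576 to 90475238, plus strand), a transcription factor of amino acid breakdown, had 8.57, 21.2 and 25.2 CPM in KO replicates 1 to 3, against 16.8, 23.2 and 37.0 CPM in WT replicates 1 to 3 (log2 fold change -0.48, SE 0.39, edgeR adjusted p = 0.562). Ddit4 (ENSMUSG00000020108, chromosome 10, 59949669 to 59951834, minus strand), whose product REDD1 restrains mTORC1, had 94.2, 125.5 and 183 CPM in KO, against 75.9, 117 and 219.8 CPM in WT. The Ddit4 means were close, 134 ± 45.2 CPM in KO and 137 ± 74.2 CPM in WT (log2 fold change -0.03, SE 0.47, 95% interval -1.23 to 1.17, edgeR adjusted p = 0.984), and the sign turned in 5 of 14 settings. An absence of change is not shown by an interval of this width.

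Cdkn1a had the highest log2 fold change of the 8 and did not pass. Cdkn1a (ENSMUSG00000023067, chromosome 17, 29090976 to 29100727, plus strand) encodes p21, an inhibitor of cyclin-dependent kinases that p53 and FoxO factors induce and that rises in atrophying muscle. It had 105, 318 and 224.0 CPM in KO replicates 1 to 3, against 62.0, 75.0 and 142 CPM in WT replicates 1 to 3. KO replicates 2 and 3 were above every WT library, and KO replicate 1 lay below WT replicate 3. The log2 fold change was 1.21 (SE 0.55, 95% interval -0.24 to 2.66, edgeR adjusted p = 0.335). The 250 bases before its upstream start are shown because they hold p53 half-sites, marked by capitals at chr17:29090906-29090915 and chr17:29090928-29090937.
Cdkn1a, chr17:29090729-29090978, plus strand: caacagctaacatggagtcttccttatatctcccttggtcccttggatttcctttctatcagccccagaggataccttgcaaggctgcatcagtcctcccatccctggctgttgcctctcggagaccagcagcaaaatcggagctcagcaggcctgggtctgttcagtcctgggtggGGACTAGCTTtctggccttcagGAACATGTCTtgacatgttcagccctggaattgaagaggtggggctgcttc
A p53 half-site was found in 8.36% of all windows. Of 17 other tested CDK inhibitors and p53 targets 1 passed, against 6.26% in either direction over all genes tested. The gene was Ccng1 (cyclin G1), a p53 target, which fell to 266 ± 39.2 CPM in KO, against 366 ± 36.6 CPM in WT (edgeR adjusted p = 0.0482). That call was lost without KO replicate 1 or 3 or any 1 of the WT replicates, and with 5 of the other settings (adjusted p up to 0.266). The count higher in KO was 0 in edgeR, DESeq2 and limma-voom and 2 at an unadjusted p under 0.05, and it was 1 with library totals, without KO replicate 1 and without WT replicate 3. Of the 17, 13 had a positive log2 fold change and their median was 0.24, against 0.02 over all genes tested. Gadd45a, a growth arrest gene that denervation induces, had 14, 8 and 8 counts in KO and 5, 10 and 2 counts in WT and was not tested.

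**Figure D2:**
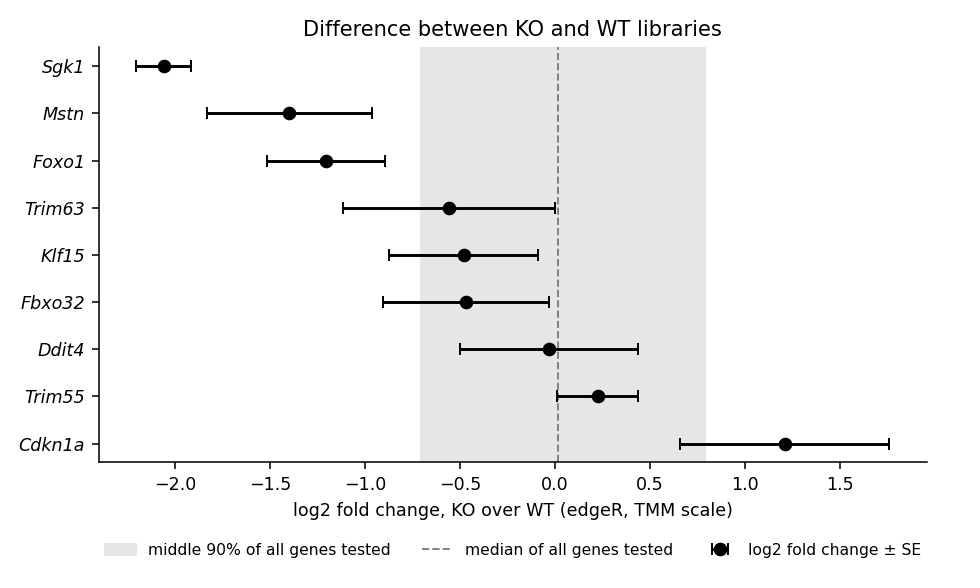
Log2 fold change of KO over WT (horizontal axis, edgeR, TMM scale) with its SE for the 9 genes that passed the filter; the grey band spans the middle 90% of all genes tested, -0.71 to 0.79, and the dashed line is their median. Sgk1, which was picked for its fall, lies below the band, as do Mstn and Foxo1. Cdkn1a lies above it, and the other 5 lie inside it with SEs of 0.21 to 0.56.

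Within each genotype, Trim63, Fbxo32, Klf15 and Ddit4 ranked the libraries alike. All 4 were lowest in replicate 1 and highest in replicate 3 among the KO libraries, and likewise among the WT libraries; replicate numbers only name libraries, so KO replicate 3 and WT replicate 3 have nothing else in common by the labels. This was noticed after the values were seen. The same ranking in both genotypes was found for 226 of all 6680 genes tested (3.38%), and for the 4 genes it was the same with library totals, where 1.56% of genes had it. Among further tested genes it was found for 3 of 24 of the glucocorticoid list, 3 of 27 ubiquitin ligases and partners, 1 of 17 CDK inhibitors and p53 targets, 1 of 9 denervation genes, 0 of 29 FoxO targets and 2 of 10 muscle fibre markers. Foxo1, Mstn and Cdkn1a shared the WT order and not the KO order, and Sgk1 and Trim55 shared neither. The highest library exceeded the lowest 2.71-fold in KO and 2.61-fold in WT for Trim63, and 1.95-fold in KO and 2.90-fold in WT for Ddit4. Of the 1883 tested genes with a mean of at least 50 CPM, 0.584% varied at least as much as Trim63 in both genotypes, and 24.2% varied at least as much as Sgk1. The listed read counts were 1498322, 1488684 and 1678288 in KO replicates 1 to 3 and 1436099, 1586938 and 1712975 in WT replicates 1 to 3, so replicate 3 was also the deepest library of each genotype. Summed markers of leukocytes and macrophages, all 11 of them detected, were 268.6, 258 and 304 CPM in KO replicates 1 to 3 and 693, 416 and 223 CPM in WT replicates 1 to 3. Those of red blood cells were 1401, 2016 and 2014 CPM in KO replicates 1 to 3 and 4002, 2882 and 1623 CPM in WT replicates 1 to 3. In WT, both sums were highest where the 4 genes were lowest, and in KO they were not. The part of depth and of blood cells in this ranking was not tested.

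**Figure D3:**
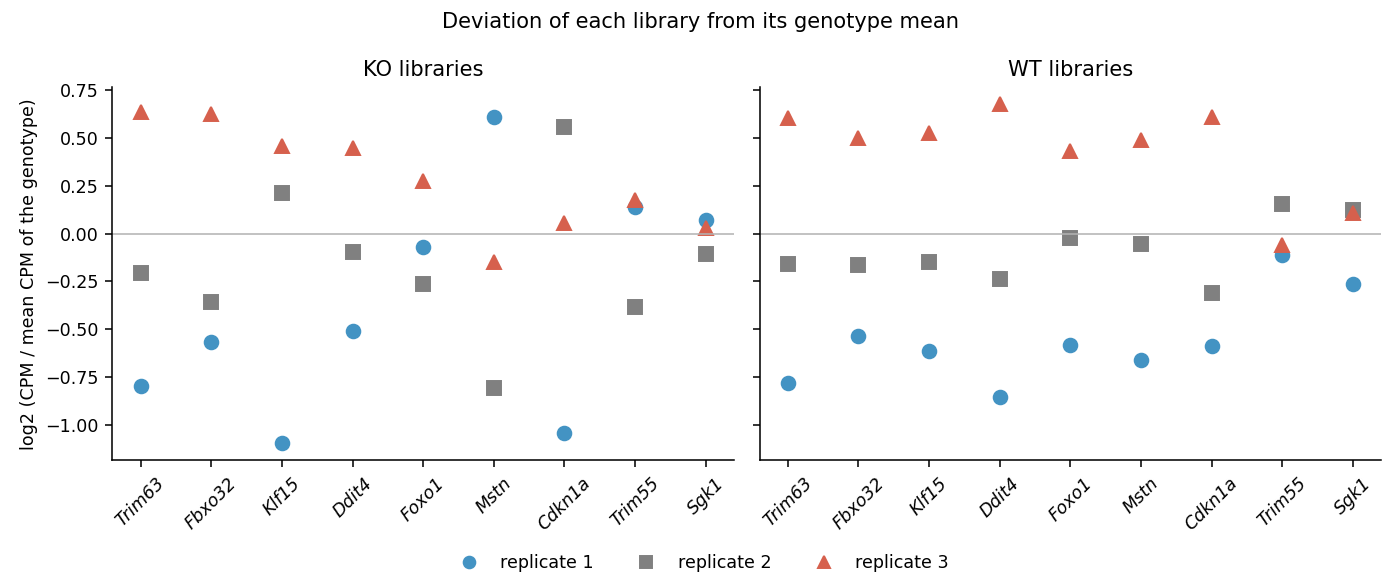
Deviation of each library from the mean of its genotype (vertical axis, log2 of CPM over mean CPM) for the 9 tested genes in KO (left) and WT (right) libraries; symbols and colours give the replicate. Replicate 3 is highest and replicate 1 lowest in both genotypes for Trim63, Fbxo32, Klf15 and Ddit4, while the Sgk1 libraries stay close to 0 in KO.

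Glucocorticoid receptor targets beyond the 10 genes gave calls in both directions. Of 24 further tested genes of this list 2 rose, 2 fell and 20 did not pass. The shares over all genes tested were 2.98% higher and 3.28% lower. With library totals 4 genes of this list were called higher. Pik3r1, a regulatory subunit of PI3 kinase, fell to 28.9 ± 6.41 CPM in KO, against 62.1 ± 13.0 CPM in WT (log2 fold change -1.11 ± 0.21 SE; adjusted p of 0.00544 in edgeR), and kept its call in all 14 other settings. Nfkbia, the NF-kappaB inhibitor, fell to 86.8 ± 16.7 CPM in KO, against 132 ± 12.4 CPM in WT (edgeR adjusted p = 0.0427). Its call was lost without KO replicate 1 or 3 or any 1 of the WT replicates, and with DESeq2, robust=FALSE, limma-voom and library totals (adjusted p up to 0.163). The genes that rose were Ampd3, an AMP deaminase that atrophying muscle induces, at 82.2 ± 19.8 CPM in KO and 20.0 ± 4.59 CPM in WT (edgeR adjusted p = 5.20e-05), and Txnip, the thioredoxin-interacting protein, at 123 ± 13.5 CPM in KO and 52.3 ± 12.2 CPM in WT (edgeR adjusted p = 0.000612). Both calls held in all 14 other settings. Scaled by TMM, log2 fold changes were below 0 for 18 of the 24, with a median of -0.26, against a median of 0.02 over all genes tested. With library totals 12 of the 24 were negative, with a median of -0.03, against 0.25 over all genes tested, and 18 lay below that median.

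The receptor gene Nr3c1 and its targets Fkbp5 and Tsc22d3 did not pass, unlike the 4 called genes of the list. Nr3c1, which encodes the glucocorticoid receptor, averaged 18.3 ± 5.35 CPM in KO and 26.5 ± 1.26 CPM in WT (log2 fold change -0.53, SE 0.24, edgeR adjusted p = 0.243). Fkbp5, a chaperone partner of the receptor and its target, averaged 25.3 ± 7.06 CPM in KO and 39.8 ± 15.9 CPM in WT (edgeR adjusted p = 0.235). Tsc22d3 (GILZ), which glucocorticoids induce in most tissues, averaged 1152 ± 334 CPM in KO and 1261 ± 304 CPM in WT (edgeR adjusted p = 0.851). Its KO and WT libraries overlapped (log2 fold change -0.13, SE 0.26). Hsp90ab1, the most abundant of the 24 and a chaperone of the receptor, averaged 1441 ± 170 CPM in KO and 1313 ± 33.8 CPM in WT (edgeR adjusted p = 0.525).

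Of 29 tested FoxO targets beyond the 10 genes 4 rose, 0 fell and 25 did not pass in edgeR. The shares over all genes tested were 2.98% higher and 3.28% lower. At an unadjusted p under 0.05, 3 of the 29 were lower, and DESeq2 and limma-voom called 0 lower. The count lower was 2 with no filter and 1 without KO replicate 2, and the count higher was 7 with library totals. Cat, the peroxide-degrading catalase, rose to 265 ± 62.1 CPM in KO, against 73.6 ± 15.8 CPM in WT (log2 fold change 1.85, SE 0.19, edgeR adjusted p = 5.59e-05). Ctsl, the lysosomal cathepsin L, rose to 276 ± 67.2 CPM in KO, against 131 ± 11.4 CPM in WT (edgeR adjusted p = 0.000943). Both kept their calls in all 14 other settings. The polyubiquitin gene Ubb, the most abundant of the list, rose to 4214 ± 410.4 CPM in KO, against 2838 ± 296 CPM in WT (edgeR adjusted p = 0.00460), and lost the call without WT replicate 1 or 2 (adjusted p up to 0.0848). The fourth gene was Txnip, given above. The median log2 fold change of the 29 was 0.09, against 0.02 over all genes tested. Fbxo30 (MUSA1), a ubiquitin ligase that BMP signalling holds down, averaged 9.81 ± 2.67 CPM in KO and 15.9 ± 3.06 CPM in WT (edgeR adjusted p = 0.231).

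**Figure D4:**
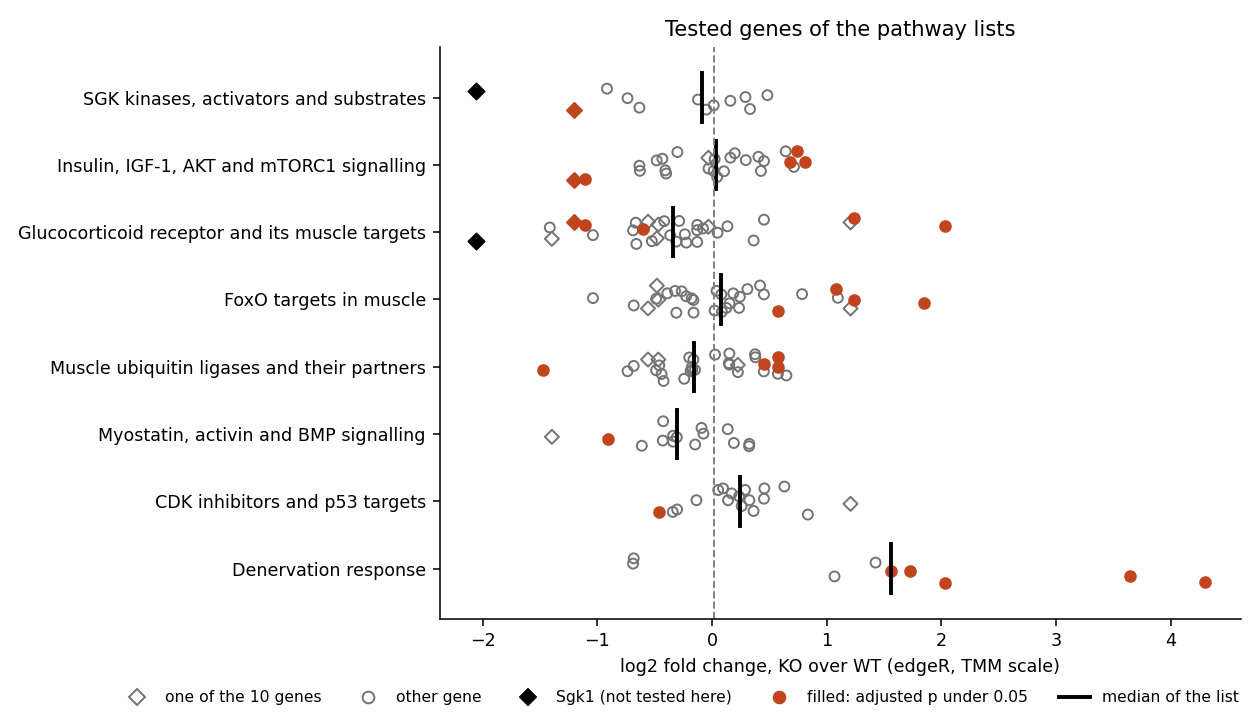
Log2 fold change of KO over WT (horizontal axis, edgeR, TMM scale) of the tested genes in 8 pathway lists. Diamonds are those of the 10 genes that passed the filter, circles are other genes, and filled red symbols have an adjusted p under 0.05. Sgk1 is black and marked as not tested: it was in the fit, but its p is not used because it was picked for its fall. Bars are medians that include the diamonds. The dashed line is the median of all genes tested; the 4 called FoxO targets lie to its right, and called genes of the glucocorticoid list lie on both sides.

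Among insulin, IGF-1, AKT and mTORC1 signalling genes 3 rose, 1 fell (Pik3r1) and 20 of 24 did not pass, leaving the 10 genes aside. The shares over all genes tested were 2.98% higher and 3.28% lower. Akt2, the main AKT kinase of insulin signalling in muscle, rose to 99.6 ± 24.0 CPM in KO, against 62.3 ± 4.66 CPM in WT (log2 fold change 0.68, SE 0.18, edgeR adjusted p = 0.0411). Akt1 averaged 9.24 ± 4.36 CPM in KO and 5.66 ± 3.72 CPM in WT (edgeR adjusted p = 0.467). Igfbp5, a binding protein of IGF-1, rose to 110.1 ± 23.8 CPM in KO, against 63.0 ± 9.52 CPM in WT (edgeR adjusted p = 0.0169), and Grb10, an adaptor that damps insulin signalling, rose to 42.4 ± 6.82 CPM in KO, against 25.3 ± 1.31 CPM in WT (edgeR adjusted p = 0.0428). The call for Akt2 was lost without KO replicate 2 or 3 or any 1 of the WT replicates (edgeR adjusted p up to 0.175). That for Grb10 was lost without KO replicate 1 or 3 or any 1 of the WT replicates (up to 0.171). That for Igfbp5 was lost without KO replicate 2 or 3 or WT replicate 2 or 3 (up to 0.0860). Over the 14 other settings the log2 fold changes stayed positive, at 0.48 to 0.905 for Akt2, 0.60 to 0.98 for Grb10 and 0.68 to 1.03 for Igfbp5. The calls for Akt2 and Grb10 were also lost with DESeq2 and limma-voom, and that for Akt2 with robust=FALSE. Rps6, the ribosomal protein at the end of this pathway and the most abundant of the 24, averaged 1114 ± 99.8 CPM in KO and 1080 ± 1.75 CPM in WT (edgeR adjusted p = 0.860).

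Of 27 further tested ubiquitin ligases and partners 3 rose, 1 fell and 23 did not pass. The shares over all genes tested were 2.98% higher and 3.28% lower. With library totals 5 genes of this list were called higher. Fbxo40, a muscle F-box protein that targets the insulin receptor substrate IRS1, fell to 55.3 ± 6.92 CPM in KO, against 154 ± 7.35 CPM in WT (log2 fold change -1.48 ± 0.15 SE; adjusted p of 2.15e-05 in edgeR), and kept its call in all 14 other settings. Its KO libraries were all below its WT libraries. Beside Ubb, Skp1a, the adaptor that joins F-box proteins to the ligase, rose to 1020 ± 246 CPM in KO, against 685 ± 54.5 CPM in WT (edgeR adjusted p = 0.0479), and Vcp, the segregase that draws ubiquitinated proteins out of complexes, rose to 407 ± 65.2 CPM in KO, against 297 ± 9.41 CPM in WT (edgeR adjusted p = 0.0428). Both calls were lost without KO replicate 1 or 3 or any 1 of the WT replicates and with DESeq2, limma-voom and robust=FALSE, and that for Vcp also with DESeq2 size factors (adjusted p up to 0.195 for Skp1a and 0.225 for Vcp).

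Myostatin signalling gave 1 call among 14 further tested genes, against 6.26% called in either direction over all genes tested. Smad3, which carries the signal of myostatin and activin receptors to the nucleus, fell to 16.6 ± 3.21 CPM in KO, against 31.3 ± 9.08 CPM in WT (log2 fold change -0.91 ± 0.26 SE; adjusted p of 0.0487 in edgeR). The call was lost with each of the 6 libraries left out in turn (adjusted p up to 0.200) and with DESeq2, robust=FALSE, limma-voom and library totals. Of the 14 further tested genes 13 did not pass, and 0 were higher in edgeR, also at an unadjusted p under 0.05 and in DESeq2 and limma-voom. Dcn, a matrix proteoglycan that binds myostatin and the most abundant of the 14, averaged 800.2 ± 22.3 CPM in KO and 991 ± 230.4 CPM in WT (edgeR adjusted p = 0.259). The receptor gene Acvr2b had 0 to 6 counts per library and the inhibitor gene Fst (follistatin) 1 to 3, so neither was tested.

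Several genes that denervation induces rose in KO. Of the 18 genes listed, 9 passed the filter on low counts, which a gene can pass through high counts in KO alone. Of these 9, 5 rose, 0 fell and 4 did not pass in edgeR, against 2.98% higher and 3.28% lower over all genes tested. At an unadjusted p under 0.05, 1 was lower, and DESeq2 and limma-voom called 0 lower. With no filter, 6 of 17 were called higher and 1 was called lower. Myog, the myogenic factor that activates Trim63 and Fbxo32 after denervation, averaged 453 ± 104 CPM in KO and 36.4 ± 12.1 CPM in WT (edgeR adjusted p = 1.68e-05). Chrna1, a subunit of the acetylcholine receptor, averaged 270.9 ± 98.9 CPM in KO and 13.7 ± 2.36 CPM in WT (edgeR adjusted p = 1.01e-05). Musk, the kinase that organizes the neuromuscular synapse, averaged 26.4 CPM in KO and 7.93 CPM in WT (edgeR adjusted p = 0.0142), and Chrnb1, a further receptor subunit, averaged 17.3 CPM in KO and 5.85 CPM in WT (edgeR adjusted p = 0.0244). Both lost their calls without WT replicate 1 or 2, and Chrnb1 also without KO replicate 1 or WT replicate 3 and with limma-voom (adjusted p up to 0.0770 for Musk and 0.116 for Chrnb1). The fifth gene was Ampd3, given above. The Myog mean was 12.5-fold higher in KO, and a link between Myog and the Trim63 or Fbxo32 values was not tested.

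The genes whose values were most like those of Sgk1 over the 6 libraries were sought among 6673 tested genes with a mean of at least 5 CPM. Pkia, the inhibitor of protein kinase A, was first, with a Pearson r of 0.999 and a Spearman rho of 1 on log2 CPM. It had 110, 98 and 114 counts in KO and 409, 544 and 528 counts in WT, averaged 64.6 ± 3.11 CPM in KO and 344 ± 39.4 CPM in WT, and was also first after each genotype mean was subtracted (r = 0.998). An r over 0.95 was found for 130 genes. The next 4 after Pkia were Flrt1, 5730455P16Rik, Xrcc2 and Bccip, with r of 0.997, 0.997, 0.996 and 0.994. Flrt1, a cell adhesion protein, had 0 counts in each KO library and 13 to 23 counts in WT libraries. After subtraction of the genotype means the next 4 were Zbtb14, Ube2n, Ing1 and Eif3m (Pearson r of 0.992, 0.990, 0.988 and 0.985). Their Spearman rho was 0.60, 0.60, 0.37 and -0.60, taken over the 6 libraries before the subtraction. These rho values include the genotype difference, so they do not describe the ranking within a genotype. None of these genes was among the first 5 before the subtraction. The libraries differ in genotype and depth, which all genes share, and with 6 libraries such values are a description.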

How the data were processed

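Total RNA of quadriceps femoris was made into cDNA by template switching with 14 cycles of PCR and read on a nanopore PromethION instrument, per the labels' protocols. The submitters' processing notes name minimap2 (no version), DESeq2 1.6.3 and the build GRCm38; no source used names the read counter, the annotation release or the use of strand. The deposited table holds values that its headers name as counts, for 22036 Ensembl genes. The CPM values that the authors deposited beside them were not used in any test. Groups followed the genotype label, with 3 libraries each.

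The 10 genes, the pathway lists and the tests were chosen with earlier results of these data known. Of the gene IDs, 22022 matched the GENCODE M21 annotation. edgeR 4.0.16 (R 4.3.3; filterByExpr, TMM, robust quasi-likelihood test) was fitted to all 6680 genes that passed the filter, with Benjamini-Hochberg adjustment over all of them and a threshold of 0.05. CPM were computed from counts on TMM-scaled library sizes. The 14 alternatives were DESeq2 size factors, upper-quartile scaling, library totals, DESeq2 1.42.0, limma-voom 3.58.1, robust=FALSE, a minimum of 5 CPM in 3 libraries, no filter and each of the 6 libraries left out. Intervals are 95%, and floors and intervals cover counting error or the spread between these libraries only. The fit was tested on simulated counts. Genes named by rule were the 10 genes, the called genes and the most abundant further gene of each list, a set of 14 receptors, kinases, ligases and partners taken whatever their values, and the 5 closest to Sgk1. Mapkap1, Pdpk1, Sgk2, Sgk3 and the Cdkn1a promoter were added after their values were seen. Promoter windows came from RefSeq on GRCm38.p6.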

Additional observations from a re-analysis of the deposited data

How the results depend on the processing

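Over the 14 alternatives the calls and directions of Trim63, Trim55, Fbxo32, Klf15 and Cdkn1a stayed as reported. The log2 fold change of Sgk1 was -1.82 with library totals and -2.21 to -2.01 with 1 library left out. The sign of Ddit4 turned with library totals (0.22), limma-voom (0.05), without KO replicate 1 (0.17), without KO replicate 2 (0.01) and without WT replicate 3 (0.48), with a range of -0.36 to 0.48 over the libraries left out. Of the 8 tested genes other than Sgk1, the number lower was 1 (Foxo1); it was 0 with library totals and DESeq2, 2 with robust=FALSE, and 0 to 1 with 1 library left out, and with limma-voom the 1 gene was Mstn. Over all genes tested, 199 were higher and 219 lower. The counts were 653 higher and 148 lower with library totals, 344 higher and 362 lower with no filter, and 83 to 179 higher and 154 to 187 lower with 1 library left out. TMM factors averaged 1.085 ± 0.027 in KO and 0.923 ± 0.055 in WT, and library totals shifted the median log2 fold change of all genes to 0.25. No paired analysis was possible because the library titles share fewer than 2 numbers between genotypes, and the replicate numbers follow accession order. At 1436099 to 1712975 listed counts per library, 3 counts equal 1.72 to 2.19 CPM, so Foxo3, Foxo4, Acvr2b and Fst lie near the limit of what this depth resolves.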
